A study of Mus musculus with 30 samples.

Results

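Cyp24a1, Pthlh, Prkg2, Pls3 and Car4 are 5 genes chosen by their counts under a MEK inhibitor, which were lower than under vehicle in mouse thyroids carrying Braf V600E. They are 5 of the 33924 genes in a table of RNA-seq read counts, and all 5 were among the 19016 genes with enough counts to be tested. They are described here across 10 groups of thyroid libraries. The counts that picked them are the same counts that give their values under the inhibitor, so those values are a description with no test.

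Mice carried Braf V600E, an activating mutation of the kinase Braf, alone or together with Arid1a KO, Arid2 KO or Smarcb1 KO, where KO is a knockout of a subunit of SWI/SNF, a complex that moves nucleosomes. Mice of each of the 4 genotypes were given vehicle or CKI, the name used in the labels for CH5126766, an inhibitor of the kinase MEK, for 8 days, and tissue was taken about 2 h after the last dose. Thyroids of wild-type mice and of Arid1a KO mice without the Braf mutation were left untreated. Each group held 3 libraries, except the vehicle and the CKI group of Braf Arid2 KO with 2 each, which makes 28 libraries. The knockout alleles, the promoter that drove recombination and the age of the mice are not given in the sources used here. One text in the labels describes flash-frozen thyroids of WT, Arid2 and Smarcb1 mice, another describes sorted YFP+ cells, and both are attached to every sample. In a comparison between genotypes the way the tissue was prepared can therefore not be told apart from the genotype. CKI and vehicle were compared within a genotype, but the labels do not settle how each library was prepared there either.

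MEK is the kinase that passes the signal of active Braf on to ERK, and an inhibitor of MEK lowers the transcription of genes that depend on ERK. The 5 genes have unlike products. Pthlh encodes parathyroid hormone-related protein, a secreted ligand that tumours can release and that raises blood calcium through the receptor Pth1r. Cyp24a1 encodes the enzyme that breaks down active vitamin D. Prkg2 encodes a protein kinase that is switched on by cyclic GMP, Pls3 encodes plastin 3, which bundles actin filaments, and Car4 encodes a carbonic anhydrase anchored at the outer cell surface.

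Promoters are shown for the 2 genes whose windows held letters of the ETS type, the family of the factors Etv1, Etv4 and Etv5. They were chosen for these letters, and whether such factors act on the 2 genes was not tested. Each sequence is the 250 bases before a RefSeq start site on build GRCm38.p6, read in the direction of the gene. Bases shortly after the start site occurred in GENCODE M21 transcripts of Pthlh and Pls3, but not in those of Car4. The place of the Car4 window is therefore less certain. Capitals mark matches to CCGGAA on either strand. The window of Pthlh is chr6:147264014-147264263 on the minus strand, and that of Car4 is chr11:84957504-84957753 on the plus strand.
Pthlh: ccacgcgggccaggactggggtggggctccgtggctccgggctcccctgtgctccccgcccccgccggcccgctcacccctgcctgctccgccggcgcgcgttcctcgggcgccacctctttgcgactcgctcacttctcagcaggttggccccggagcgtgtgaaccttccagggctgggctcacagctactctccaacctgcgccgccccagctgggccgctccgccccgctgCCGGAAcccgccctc
Car4: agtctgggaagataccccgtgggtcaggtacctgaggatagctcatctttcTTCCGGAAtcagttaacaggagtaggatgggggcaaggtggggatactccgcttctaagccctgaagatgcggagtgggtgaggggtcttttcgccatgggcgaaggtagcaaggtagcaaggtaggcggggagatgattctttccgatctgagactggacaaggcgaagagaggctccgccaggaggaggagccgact
Pthlh held 1 match close to its start site, and Car4 held 2 that overlap each other on opposite strands. The 3 RefSeq start sites of Pls3 had no match in their windows. Of 32851 promoters of the same length, 12% held CCGGAA. No window of these 3 genes held TGANTCA (the AP-1 type, found in 6.75% of promoters) or TGACGTCA (the cyclic AMP response element, found in 1.55%). Cyp24a1 and Prkg2 had no entry among the sequences used.

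Library depth ran from 23879271 to 34400066 counts. Levels below are CPM values, in which TMM factors adjust the depth of each library, and fold changes are log2 values of edgeR's fit with their standard error (SE). Thyroid follicular markers (10 genes) were present in every group, at a summed 63091 to 161356 CPM in wild type, 1170 to 1728 CPM in Braf under vehicle and 234 to 531 CPM in Braf Smarcb1 KO under vehicle. Counts of Smarcb1 were 2.28 to 17.9 CPM in Braf Smarcb1 KO under vehicle and 11.9 to 47.4 CPM under CKI, against 57.0 to 131 CPM in Braf under vehicle. Smarcb1 was also at 15.1 to 62.5 CPM in Arid1a KO thyroids, below the 74.8 to 152 CPM of wild type. Arid1a counts did not separate Braf Arid1a KO from Braf under vehicle, nor did Arid2 counts separate Braf Arid2 KO from Braf, and the labels do not say which exons were removed. The labels also do not say that libraries came from separate mice, so the p-values below measure only the spread between these libraries.

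Pthlh, the secreted ligand, had the highest level of the 5 per length in Braf thyroids under vehicle, at 876 ± 487 CPM per kb of exon (SD, n = 3). On the same scale Pls3 had 481 ± 144, Car4 52.8 ± 14.2, Prkg2 4.35 ± 0.875 and Cyp24a1 3.16 ± 2.70. Exon lengths were those of GENCODE M21 on build GRCm38, whereas build mm9 was used for the counts. By CPM alone Pls3 was higher in that group, with a mean of 2039 CPM against 1418 CPM for Pthlh. The 3 Braf libraries had 696.3, 1299 and 2260 CPM of Pthlh under vehicle, and those under CKI had 207.1, 241.4 and 347 CPM. Braf Arid1a KO libraries had 778.8, 897.7 and 1115 CPM under vehicle and 74, 85.52 and 186.1 CPM under CKI. The libraries of Braf Arid2 KO had 404.7 and 449.5 CPM under vehicle and 64.26 and 67.46 CPM under CKI. Every CKI library was below every vehicle library of its genotype, with no overlap. Braf Smarcb1 KO showed the same separation at a lower level, with 187.8, 192.6 and 198.8 CPM under vehicle and 46.74, 52.98 and 62.28 CPM under CKI. The log2 fold changes were -2.42 (SE 0.42) in Braf, -3.01 (SE 0.43) in Braf Arid1a KO, -2.70 (SE 0.52) in Braf Arid2 KO and -1.84 (SE 0.41) in Braf Smarcb1 KO. Wild-type thyroids had 4.153, 9.772 and 11.36 CPM and Arid1a KO thyroids 3.296, 6.148 and 7.652 CPM, so even the lowest CKI library of a Braf genotype stood above all 6 of these.

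In order of mean level Pthlh ran from Braf under vehicle through Braf Arid1a KO, Braf Arid2 KO, Braf under CKI and Braf Smarcb1 KO under vehicle to Braf Arid1a KO, Braf Arid2 KO and Braf Smarcb1 KO under CKI, with wild type and Arid1a KO last. Neighbours in this order overlapped in their libraries only between Braf and Braf Arid1a KO under vehicle and between wild type and Arid1a KO.

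Cyp24a1, the vitamin D catabolic enzyme, had no read in any wild-type library, and the Arid1a KO libraries had 0, 0 and 0.1029 CPM. With 3 counts taken as the floor over the wild-type group, Braf under vehicle was at least 348-fold higher. Braf libraries had 1.783, 10.92 and 20.99 CPM under vehicle and 0.03245, 0.04214 and 0.3788 CPM under CKI. In Braf Arid1a KO the vehicle libraries had 4.409, 6.428 and 22.11 CPM and the CKI libraries 0.03382, 0.1551 and 0.2859 CPM. All vehicle libraries of these 2 genotypes were well above their CKI libraries, although the vehicle libraries differed among themselves by more, as a ratio, than those of the other 4 genes. Braf Arid2 KO had the highest mean level, 58.76 and 67.51 CPM under vehicle, and 0 and 0.5512 CPM under CKI. The log2 fold changes were -6.15 (SE 1.57) in Braf, -6.09 (SE 1.57) in Braf Arid1a KO and -7.85 (SE 1.98) in Braf Arid2 KO.

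Braf Smarcb1 KO did not follow this pattern. Its vehicle libraries had 13.82, 73.42 and 90.69 CPM of Cyp24a1, and its CKI libraries had 2.063, 6.548 and 175.1 CPM. The last, CKI replicate 4, was the highest library of the series, with 6564 counts of the gene. With it the log2 fold change was 0.05 (SE 1.15), and without it -3.77. The gene shares a stretch of the genome with Pfdn4 on the other strand, and the sources used here do not say whether counting kept strand. In the same library Prkg2 and Pthlh stood with the other CKI libraries, at 39.78 and 46.74 CPM.

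Prkg2, the cyclic GMP-dependent kinase, was nearly absent without the Braf mutation: wild-type libraries had 0.0698, 0.441 and 1.056 CPM, and Arid1a KO libraries 0.5243, 1.373 and 1.506 CPM. Under vehicle it had 17.98, 25.62 and 26.54 CPM in Braf and 0.3443, 0.8438 and 0.9271 CPM under CKI. The CKI libraries of Braf thus lay in the range of wild type and Arid1a KO. Braf Arid1a KO had 4.631, 5.538 and 8.58 CPM under vehicle and 0.1939, 0.3217 and 1.116 CPM under CKI. Braf Arid2 KO had 27.12 and 27.13 CPM under vehicle and 0.8268 and 0.9652 CPM under CKI. Braf Smarcb1 KO stood apart at both treatments, with 186.6, 239.3 and 323.5 CPM under vehicle and 28.83, 34.31 and 39.78 CPM under CKI, so that its CKI libraries were above the vehicle libraries of every other genotype. The log2 fold changes under CKI were -5.05 (SE 0.63), -3.50 (SE 0.61), -4.91 (SE 0.77) and -2.86 (SE 0.55) in Braf, Braf Arid1a KO, Braf Arid2 KO and Braf Smarcb1 KO. In order of mean level, the groups from Braf Smarcb1 KO under vehicle down to Braf Arid1a KO under vehicle were separate from one another, while those below, from Arid1a KO down to wild type, overlapped with their neighbours. The span of Prkg2 overlaps that of the processed pseudogene Gm3470 on the same strand. Whether their exons overlap and how shared reads were counted was not checked.

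Pls3, the actin bundler, was abundant in every group and had the narrowest range of the 5. Wild-type libraries had 545.1, 547.6 and 693.7 CPM, and Arid1a KO libraries 723.3, 857 and 969.6 CPM. In Braf the vehicle libraries had 1605, 1774 and 2737 CPM and the CKI libraries 544.9, 555.1 and 594.4 CPM, close to the wild-type libraries. Braf Arid1a KO had 1042, 1128 and 1254 CPM under vehicle and 406.7, 580.9 and 619.4 CPM under CKI. Braf Arid2 KO had 1257 and 1413 CPM under vehicle and 512.9 and 520.4 CPM under CKI. In Braf Smarcb1 KO the vehicle libraries had 1797, 2247 and 2897 CPM and the CKI libraries 883.7, 1061 and 1307 CPM, all above wild type. The log2 fold changes under CKI were -1.85 (SE 0.24), -1.09 (SE 0.24), -1.37 (SE 0.29) and -1.09 (SE 0.24), in the same order of genotypes. The 4 lowest groups by mean, wild type and the CKI groups of Braf, Braf Arid1a KO and Braf Arid2 KO, overlapped with their neighbours.

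Car4, the surface carbonic anhydrase, was as high in thyroids without the Braf mutation as in several groups with it. Wild-type libraries had 31.83, 48.8 and 69.87 CPM and Arid1a KO libraries 63.15, 74.77 and 103.7 CPM, against 87.59, 87.79 and 136.2 CPM in Braf under vehicle. The name tumour gene is therefore at odds with the data for Car4, and Pls3 was also abundant in wild type. Under CKI the Braf libraries had 7.659, 9.986 and 10.32 CPM. Braf Arid1a KO had 33.05, 37.79 and 40.98 CPM under vehicle and 0.03879, 1.001 and 7.88 CPM under CKI. Braf Arid2 KO had 15.64 and 53.99 CPM under vehicle and 0.1575 and 0.2502 CPM under CKI, and Braf Smarcb1 KO had 2.669, 9.543 and 27.32 CPM and 0.2615, 0.4802 and 1.326 CPM. Every CKI library was again below every vehicle library of its genotype, and in all 4 genotypes it was also below every wild-type library. The log2 fold changes were -3.48 (SE 0.91), -3.64 (SE 0.93), -7.38 (SE 1.43) and -4.24 (SE 0.98). All groups in the order of mean level overlapped with the next, except the last pair, Braf Smarcb1 KO and Braf Arid2 KO under CKI.

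**Figure D1:**
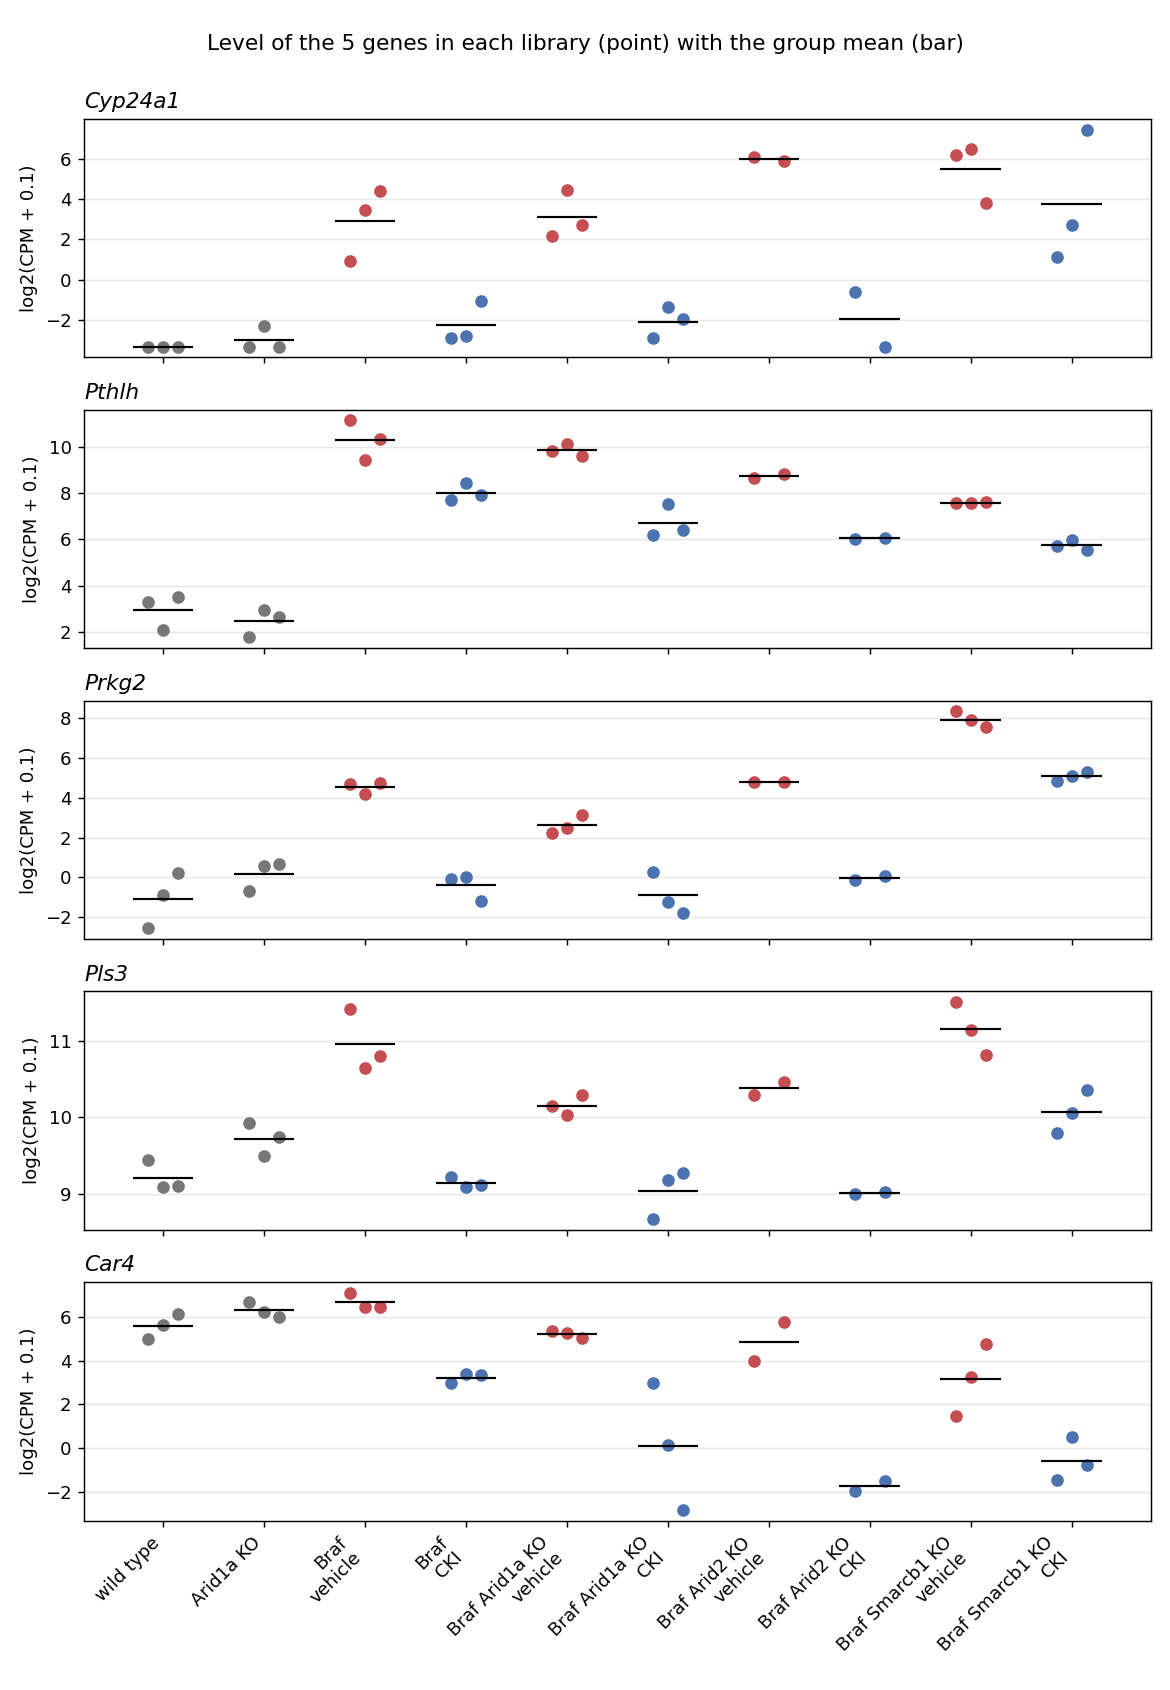
Level of each gene as log2(CPM + 0.1) on the vertical axis in the 10 groups, with a point per library and a bar at the mean of the group (grey without the Braf mutation, red vehicle, blue CKI). Blue points lie below the red points of the same genotype in every panel except Cyp24a1 in Braf Smarcb1 KO, where CKI replicate 4 reaches 175.1 CPM, and Car4 is the gene whose grey points lie among the red ones.

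Set side by side, the CKI libraries lay below the vehicle libraries without overlap for 5 of the 5 genes in Braf, Braf Arid1a KO and Braf Arid2 KO and for 4 of 5 in Braf Smarcb1 KO. Of all genes tested, 15.5%, 14.2%, 29.2% and 10.2% did so in these genotypes. Since the genes were picked for being lower, nothing is read from these counts. The median log2 fold change of the 5 was -3.48 in Braf, -3.50 in Braf Arid1a KO, -4.91 in Braf Arid2 KO and -1.84 in Braf Smarcb1 KO, beside medians of -0.01, 0.03, -0.03 and 0.03 over all genes. Cyp24a1 and Car4 had the widest errors and Pls3 the narrowest. Whether the response of a gene differed between genotypes was not tested.

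**Figure D2:**
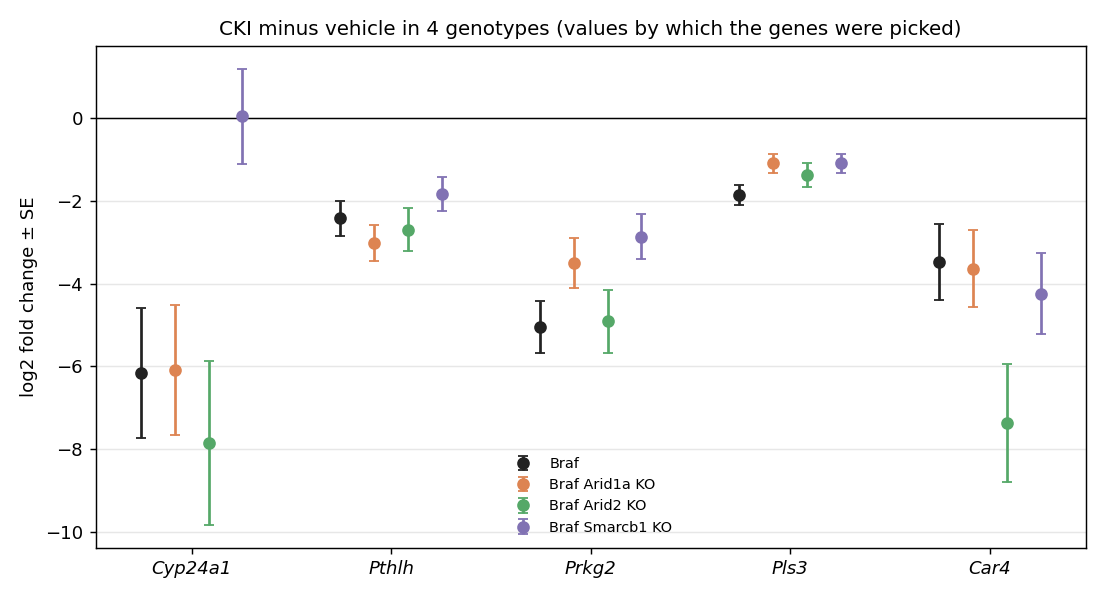
Log2 fold change of CKI against vehicle with its SE for the 5 genes in the 4 genotypes. All points are below 0 except Cyp24a1 in Braf Smarcb1 KO at 0.05. Among the falls within each genotype, that of Pls3 is the smallest, from -1.85 to -1.09.

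Markers of other cells moved with CKI. The summed level of 7 leukocyte markers was 477 to 903 CPM in Braf under vehicle and 64.7 to 176 CPM under CKI, and it was 219 to 613 against 29.6 to 210 CPM in Braf Arid1a KO, 349 to 360 against 65.0 to 67.2 CPM in Braf Arid2 KO and 99.9 to 288 against 82.1 to 133 CPM in Braf Smarcb1 KO. None of the leukocyte markers was at 0 in any group. Endothelial markers (10 genes) summed to 38.5 to 714 CPM in Braf under vehicle and 207 to 721 CPM under CKI, an overlap. The 10 thyroid follicular markers went the other way, from 1170 to 1728 CPM under vehicle to 11278 to 24169 CPM under CKI in Braf. Dissociation stress genes (12 genes) summed to 8376 to 13759 CPM under vehicle and 20363 to 27521 CPM under CKI in Braf, and to 7336 to 9606 against 17989 to 20596 CPM in Braf Smarcb1 KO. Vehicle and CKI overlapped in these genes in Braf Arid1a KO (15050 to 26153 against 10427 to 35604 CPM) and in Braf Arid2 KO (13571 to 16311 against 11091 to 16566 CPM). The part of these markers in the levels of the 5 genes was not tested. In such bulk libraries fewer cells of a type and less RNA per cell cannot be told apart.

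Under vehicle the 5 genes were also compared between Braf with a lost SWI/SNF subunit and Braf alone. The Braf vehicle libraries serve in all 3 of these comparisons and also picked the genes, so the values are given without a test. With Arid1a KO, Prkg2 (log2 fold change -1.90, SE 0.54), Pls3 (-0.84, SE 0.24) and Car4 (-1.48, SE 0.85) were lower than in Braf alone without overlap, while Pthlh (-0.61) and Cyp24a1 (-0.04) overlapped. Of all genes, 11.9% were lower without overlap. Fibroblast markers (8 genes) summed to 325 to 785 CPM in Braf Arid1a KO and 894 to 21731 CPM in Braf under vehicle. By edgeR 7 of 8 fibroblast, 6 of 10 endothelial and 5 of 7 smooth muscle and pericyte markers were called lower. Of all genes, 5.31% were called lower. The part of these markers was not tested.

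With Arid2 KO, Cyp24a1 was higher than in Braf alone (2.49, SE 1.29) and Pthlh lower (-1.73, SE 0.47), each without overlap. Car4 (-1.58) and Pls3 (-0.61) were lower without overlap, and Prkg2 was higher by a narrow margin (0.21, SE 0.58). With 2 libraries against 3, 15.7% of all genes were lower and 19.1% higher without overlap. Fibroblast markers summed to 367 to 787 CPM against 894 to 21731 CPM in Braf, with 3 of 8 called lower by edgeR beside 1.28% of all genes. Leukocyte markers summed to 349 to 360 against 477 to 903 CPM. The part of these markers was not tested.

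Smarcb1 KO went with the widest split. Prkg2 was 10.7-fold higher than in Braf alone (log2 fold change 3.42, SE 0.57), with no overlap, whereas Pthlh was lower (-2.88, SE 0.43) and so was Car4 (-2.98, SE 0.89). Cyp24a1 and Pls3 (0.18, SE 0.23) overlapped with Braf. Among all genes 17.3% were lower and 19.2% higher without overlap. Thyroid follicular markers were also lower, at 234 to 531 CPM against 1170 to 1728 CPM. By edgeR 4 of 7 leukocyte, 6 of 10 endothelial, 4 of 8 fibroblast and 4 of 7 smooth muscle and pericyte markers were called lower too. Of all genes, 14.2% were called lower. The part of these markers in the differences of the 5 genes was not tested.

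**Figure D3:**
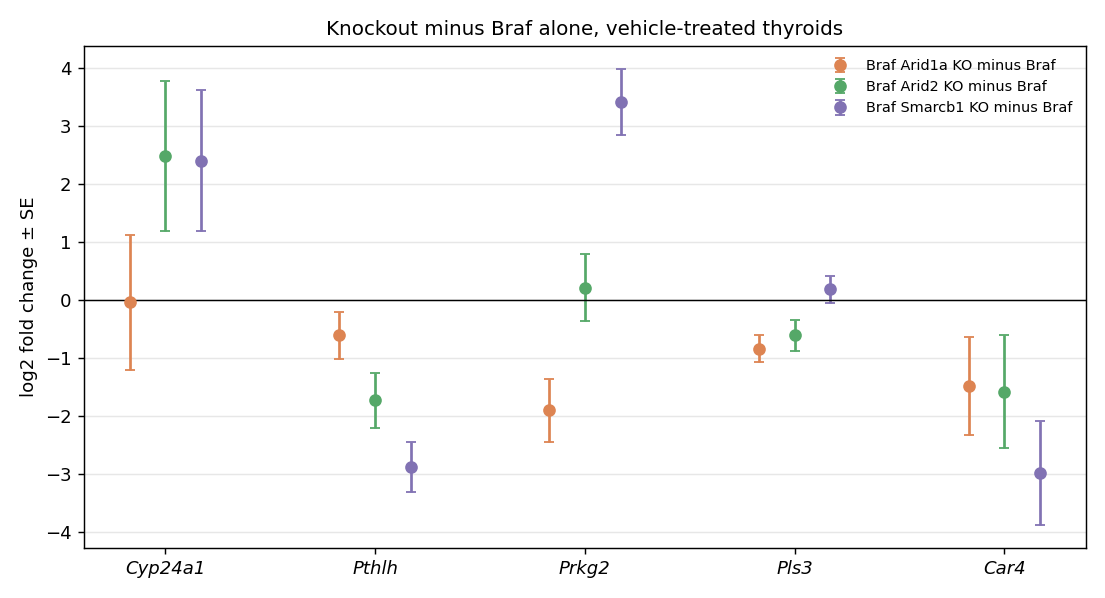
Log2 fold change of each knockout with Braf against Braf alone, both under vehicle, with its SE. Pthlh and Car4 lie below 0 in all 3 knockouts, and Prkg2 runs from -1.90 with Arid1a KO to 3.42 with Smarcb1 KO.

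Against wild type, Braf under vehicle was higher without overlap for all 5 genes, as were 17.3% of all genes. Pthlh had a log2 fold change of 7.39 (SE 0.53), Prkg2 of 5.46 (SE 0.65), Pls3 of 1.78 (SE 0.24) and Car4 of 1.05 (SE 0.84), and for Cyp24a1 the bound of 348-fold stands in place of a fold change. Values of the same step with Arid1a KO on both sides stand beside these, and the difference between the steps was not tested. Braf Arid1a KO under vehicle against Arid1a KO gave 7.35 for Pthlh, 2.46 for Prkg2 and 0.43 for Pls3, but -1.11 for Car4, which was lower without overlap. Cyp24a1 had 894 counts against 3 there, a ratio of 267 with a 95% counting interval of 91.0 to 1296. Of all genes, 26.1% were higher and 26.2% lower without overlap in that comparison. Parathyroid and C cell markers (6 genes) summed to 12478 to 33048 CPM in wild type and 25.6 to 90.7 CPM in Braf under vehicle. Endothelial markers summed to 2092 to 3188 against 38.5 to 714 CPM, and fibroblast markers to 741 to 1442 against 894 to 21731 CPM. In Arid1a KO and Braf Arid1a KO under vehicle, fibroblast markers summed to 9972 to 13642 and 325 to 785 CPM. Endothelial markers summed to 2259 to 3014 and 50.2 to 67.9 CPM in these groups, and leukocyte markers to 1473 to 2318 and 219 to 613 CPM. Parathyroid and C cell markers were at 4449 to 11804 and 26.4 to 67.7 CPM there. The part of these markers in the differences was not tested.

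CKI did not bring the 5 genes to a common place relative to wild type. Braf libraries under CKI overlapped with wild type for Prkg2 (log2 fold change 0.41, SE 0.61) and Pls3 (-0.08, SE 0.23). Pthlh remained above wild type without overlap (4.97, SE 0.47), and Car4 was below it without overlap (-2.43, SE 0.88). For Cyp24a1 the Braf CKI libraries had 13 counts in all and wild type none, which makes Braf under CKI at least 4.52-fold higher by the same floor. Of these counts 11 came from replicate 5, and without it the other 2 are below the floor and give no bound. Of all genes, 20.3% were higher and 22.5% lower without overlap.

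Only Arid1a KO against wild type, both untreated, uses libraries that had no part in picking the genes, so here the members were tested. No member passed, with 3538 genes (18.6%) called among all tested. By edgeR's quasi-likelihood test the log2 fold change of Pthlh was -0.56 (SE 0.41, adjusted p = 0.361), of Prkg2 1.10 (SE 0.60, adjusted p = 0.214), of Pls3 0.51 (SE 0.23, adjusted p = 0.131) and of Car4 0.68 (SE 0.83, adjusted p = 0.618). Cyp24a1 was at or below the floor in both groups and has no fold change. Of the 4 members tested, 1 had an unadjusted p under 0.05, Pls3, whose Arid1a KO libraries were all above wild type, as were 17.1% of all genes, and DESeq2 called 0. Prkg2 passed when wild-type replicate 3 was left out (2.14, adjusted p = 0.0410). Arid1a KO libraries had more leukocyte (1473 to 2318 against 145 to 363 CPM) and fibroblast markers (9972 to 13642 against 741 to 1442 CPM), and the part of these was not tested.

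The other genes of each pathway, which did not pick the members, were tested in the 4 drug comparisons. Among all genes 13% were called in Braf (7.96% higher and 5.01% lower), 4.51% in Braf Arid1a KO (2.51% and 2%), 3.37% in Braf Arid2 KO (1.41% and 1.96%) and 3.85% in Braf Smarcb1 KO (1.8% and 2.05%). Around Cyp24a1, 13 of 14 listed vitamin D genes were tested. In Braf 2 rose and 1 fell, in Braf Arid1a KO 2 rose and 1 fell, in Braf Arid2 KO 1 fell and in Braf Smarcb1 KO 1 rose. Lrp2, which encodes megalin, the receptor that takes up vitamin D with its binding protein and also binds thyroglobulin, rose in 3 of these. Its libraries in Braf had 3.056, 6.644 and 12.33 CPM under vehicle and 90.22, 90.46 and 91.86 CPM under CKI, a log2 fold change of 3.62 (SE 0.55, adjusted p = 0.000473 by edgeR). In Braf Arid1a KO it was 2.38 (adjusted p = 0.0118, and 0.0567 and 0.0739 without vehicle replicates 2 and 3) and in Braf Smarcb1 KO 2.55 (adjusted p = 0.00981, and 0.0663 without vehicle replicate 1). The follicular markers were higher in the CKI libraries of Braf, as given above. They summed to 1377 to 2617 CPM under vehicle and 24933 to 37947 CPM under CKI in Braf Arid1a KO. In Braf Smarcb1 KO they summed to 234 to 531 against 2043 to 2929 CPM. Their part was not tested.

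Trpv6, an epithelial calcium channel that vitamin D induces in the gut, fell in 2 of the genotypes in which Cyp24a1 was lower. In Braf it went from 176, 246 and 427 CPM under vehicle to 34.5, 56.4 and 72.2 CPM under CKI (log2 fold change -2.38, SE 0.66, adjusted p = 0.0226 by edgeR). That call was lost without Braf vehicle replicate 2, CKI replicate 1 or CKI replicate 4 (adjusted p = 0.0709 to 0.104). In Braf Arid1a KO the fall was -3.45 (SE 0.69, adjusted p = 0.00670), which held without each library in turn. Cyp27b1, the enzyme that makes active vitamin D, rose in Braf from a mean of 2.48 to 13.7 CPM (2.46, SE 0.65, adjusted p = 0.0195), with adjusted p of 0.0833, 0.0751 and 0.0501 without vehicle replicates 2 and 4 and CKI replicate 1. Vdr, the vitamin D receptor, had 54.0 ± 15.3 CPM under vehicle and 72.6 ± 21.5 CPM under CKI in Braf (SD, n = 3), and its difference of 0.42 did not pass (adjusted p = 0.557). Rxra, a partner of Vdr, rose in Braf Arid1a KO (1.62, adjusted p = 0.0260, lost without vehicle replicate 1 or 3 or CKI replicate 2, at 0.0948, 0.0980 and 0.0867). In Braf Arid2 KO the gene called lower was Rxrg, at 0.629 CPM under vehicle and 0 counts under CKI (adjusted p = 0.0170, and 0.120 to 0.197 without vehicle replicate 2 or either CKI library).

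Against wild type, 3 vitamin D genes rose in Braf under vehicle and 1 fell, with 20% of all genes called (9.84% higher and 10.1% lower). Trpv6 rose by 3.70 (SE 0.69, adjusted p = 0.000634) and S100g, a calcium-binding protein of the same gut pathway, by 6.36 (SE 1.29, adjusted p = 0.00124). Lrp2 fell by 2.48 on the log2 scale (SE 0.52, adjusted p = 0.00179).

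Around Pthlh, 16 listed genes of its receptor pathway were tested. In Braf 1 rose and 1 fell, in Braf Arid1a KO 2 rose and 1 fell, in Braf Arid2 KO 1 fell and in Braf Smarcb1 KO 0 passed by edgeR, 0 by DESeq2 and 0 at an unadjusted p under 0.05. Pth1r, the receptor, was low throughout: 0.680 ± 0.643 CPM in Braf under vehicle and 2.41 ± 2.65 CPM under CKI (SD, n = 3), a difference that did not pass (1.81, adjusted p = 0.224). Tnfrsf11b, which encodes osteoprotegerin, the decoy receptor that restrains bone resorption, fell in Braf from 18.9, 34.1 and 49.9 CPM to 5.27, 5.75 and 8.24 CPM (-2.42, SE 0.55, adjusted p = 0.00906 by edgeR). Against wild type it rose in Braf under vehicle by 4.72 (SE 0.61, adjusted p = 1.30e-05). Its ligand Tnfsf11, which encodes RANKL, rose in Braf (2.45, adjusted p = 0.0376), a call lost without any of 4 libraries, vehicle replicates 2 and 4 and CKI replicates 1 and 4, where the adjusted p was 0.0943 to 0.135. In Braf Arid1a KO, Tnfrsf11b fell by 2.11 on the log2 scale (adjusted p = 0.0299, and 0.0999 to 0.116 without vehicle replicate 1 or 3 or CKI replicate 2 or 5). Gli2 and Casr rose there from 0.0207 and 0.0634 CPM to 3.29 and 3.25 CPM (adjusted p = 0.00362 and 0.00649 by edgeR). Both vehicle levels were very low, so the sizes of these rises are uncertain. Casr is also a parathyroid and C cell marker. These markers (6 genes) summed to 26.4 to 67.7 CPM under vehicle and 36.4 to 202 CPM under CKI in Braf Arid1a KO, and their part was not tested. Prkacb, a catalytic subunit of protein kinase A, fell in Braf Arid2 KO (-1.87, adjusted p = 0.0432, and 0.0559 to 0.329 without each of the 4 libraries in turn).

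Pth, the parathyroid hormone gene, had 3931 ± 2083 CPM in wild type and 31.2 ± 11.8 CPM in Braf under vehicle (SD, n = 3), and fell by 6.98 on the log2 scale (SE 1.24, adjusted p = 0.000399). Casr, the calcium-sensing receptor of parathyroid and C cells, fell by 9.03 on the log2 scale (adjusted p = 1.66e-05). In all, 4 genes of the list rose and 3 fell against wild type. The parathyroid and C cell markers given above, of which Casr is one, moved with both, and their part was not tested.

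Around Prkg2, 19 of 20 listed genes of cyclic GMP signalling were tested. In Braf 2 rose and 1 fell, in Braf Arid1a KO 1 rose, in Braf Arid2 KO 1 fell and in Braf Smarcb1 KO 2 rose and 1 fell. Prkg1, the other kinase of the family, was low and did not pass in any genotype under CKI. It had 2.85 ± 1.69 CPM in Braf under vehicle and 2.23 ± 1.29 CPM under CKI (SD, n = 3). Nppc, which encodes C-type natriuretic peptide, a ligand that raises cyclic GMP, rose in 2 genotypes. In Braf Smarcb1 KO its libraries went from 7.503, 8.836 and 9.510 CPM to 91.69, 133.2 and 148.3 CPM (3.85, SE 0.51, adjusted p = 0.000457 by edgeR), and this held without each library in turn. In Braf the rise was 1.76 (adjusted p = 0.0218, and 0.0586 to 0.0914 without vehicle replicate 2 or 4 or CKI replicate 1 or 5). Vasp, an actin regulator that cyclic nucleotide-dependent kinases phosphorylate, fell in Braf (-0.96, adjusted p = 0.0330, and 0.0555 to 0.127 without vehicle replicate 2 or 5 or CKI replicate 1 or 4). It also fell in Braf Smarcb1 KO (-1.09, adjusted p = 0.0359), where no call was left without vehicle replicate 1 or 2 or any CKI library (0.0843 to 0.205).

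Each further call on this list was lost without at least 3 single libraries in turn. Pde10a rose in Braf (2.07, adjusted p = 0.0477), and its adjusted p was 0.052 to 0.168 without each of the 6 libraries in turn. Npr2, a natriuretic peptide receptor, rose in Braf Arid1a KO (1.79, adjusted p = 0.0311, and 0.0567 to 0.144 without any vehicle library or CKI replicate 5). Pde2a, a phosphodiesterase, fell in Braf Arid2 KO (-3.90, adjusted p = 0.0209, and 0.138 to 0.267 without vehicle replicate 2 or either CKI library). Npr1 rose in Braf Smarcb1 KO (1.59, adjusted p = 0.0258, and 0.0645 to 0.141 without vehicle replicate 1 or CKI replicate 1 or 4). Against wild type 1 gene of the list rose and 6 fell in Braf under vehicle, among them Npr2 (-2.34, adjusted p = 0.00130), Nppc (-2.10, adjusted p = 0.00389) and Pde9a (-2.65, adjusted p = 0.00406).

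Around Pls3, 12 listed genes of actin bundling and attachment were tested. In Braf 1 fell, and 0 were called in the other 3 genotypes by edgeR. There 1, 7 and 2 had an unadjusted p under 0.05 in Braf Arid1a KO, Braf Arid2 KO and Braf Smarcb1 KO, and DESeq2 called 0, 3 and 0. The gene called in Braf was Lcp1, plastin 2, which leukocytes express (mean 388 CPM under vehicle and 110 CPM under CKI, log2 fold change -1.81, SE 0.38, adjusted p = 0.00659). The leukocyte markers were lower in the same libraries, as given above. Pls1, the plastin of intestinal brush borders, had 51.7 ± 17.3 CPM in Braf under vehicle and 81.7 ± 12.9 CPM under CKI (SD, n = 3) and did not pass (adjusted p = 0.396). Whether the plastins differed from one another in their response was not tested. Against wild type Actn1, alpha-actinin 1, rose (1.63, SE 0.28, adjusted p = 0.000242) and Espn fell (-2.61, SE 0.72, adjusted p = 0.0134).

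Around Car4, 12 of 15 other carbonic anhydrases were tested. In Braf 2 fell, and 0 passed by edgeR in the other 3 genotypes. There 3, 2 and 2 had an unadjusted p under 0.05 in Braf Arid1a KO, Braf Arid2 KO and Braf Smarcb1 KO, and DESeq2 called 0, 1 and 0. Car5b, a mitochondrial form, went from 104.8, 124.3 and 124.5 CPM to 41.8, 50.4 and 57.9 CPM (-1.24, SE 0.26, adjusted p = 0.00695). Car9, a surface form known from hypoxic tumours, fell from a mean of 3.05 to 0.732 CPM (-2.05, adjusted p = 0.0352), with adjusted p of 0.0541 to 0.131 without each of the 6 libraries in turn. Car2, the abundant form of the cytosol, had 209 ± 88.2 CPM under vehicle and 181 ± 35.7 CPM under CKI in Braf (SD, n = 3) and did not pass (adjusted p = 0.819). Car6, a secreted form of salivary glands, reached 2501 CPM in 1 Arid1a KO library, replicate 2, and at most 1.42 CPM in the other 2. Against wild type Car9 rose in Braf under vehicle (2.88, SE 0.65, adjusted p = 0.00335), and Car7 (-3.50, adjusted p = 0.000145) and Car11 (-1.88, adjusted p = 0.0376) fell. The Car11 call was lost without Braf vehicle replicate 2 or 4 or wild-type replicate 2 or 3 (0.0546 to 0.121).

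Genes that report ERK output were read beside the members, as 19 listed genes. In Braf 3 rose and 3 fell, in Braf Arid1a KO 5 fell, in Braf Arid2 KO 1 fell and in Braf Smarcb1 KO 6 fell. These counts moved with single libraries and with the tool. In Braf 0 rose without vehicle replicate 2 and 1 without CKI replicate 1. Leaving out any 1 library of Braf Arid1a KO left 1 to 3 that fell. In Braf Arid2 KO 0 fell without vehicle replicate 2 or either CKI library, and 7 by DESeq2. In Braf Smarcb1 KO 3 fell without vehicle replicate 2, CKI replicate 1 or CKI replicate 4, 9 by DESeq2, and 0 in a fit of only the groups compared. Etv4, an ETS factor induced by ERK, went in Braf from 27.92, 28.98 and 32.55 CPM to 2.065, 2.479 and 3.116 CPM (-3.54, SE 0.63, adjusted p = 0.00220 by edgeR). Spred1, an inhibitor of the pathway, fell by 1.37 on the log2 scale (SE 0.24, adjusted p = 0.00191). Phlda1 rose in Braf (2.15, SE 0.50, adjusted p = 0.0107), and without Braf vehicle replicate 2 its adjusted p was 0.0551. In Braf Arid1a KO, Etv5 fell by 3.16 on the log2 scale (SE 0.49, adjusted p = 0.00101). Ccnd1, which encodes cyclin D, also fell there (-2.00, adjusted p = 0.0225, and 0.0553 to 0.0776 without vehicle replicate 1 or 2 or any CKI library), as did Spred1 (-0.96, adjusted p = 0.0254, and 0.0724 to 0.109 without vehicle replicate 1 or 3 or CKI replicate 5). In Braf Smarcb1 KO, Etv5 (-2.91, SE 0.48, adjusted p = 0.00173) and Spry4 (-2.36, SE 0.46, adjusted p = 0.00519) fell, and each held without each library in turn. Spred2 fell there too (-1.70, adjusted p = 0.0115, and 0.0785 and 0.0743 without vehicle replicate 2 and CKI replicate 1) and in Braf Arid2 KO (-1.89, adjusted p = 0.0244, and 0.186 to 0.323 without vehicle replicate 2 or either CKI library). Against wild type 7 of the 19 rose in Braf under vehicle and 0 fell by edgeR (1 at an unadjusted p under 0.05, 0 by DESeq2), led by Etv1 (3.46, SE 0.34, adjusted p = 5.64e-07), Spred1 (2.43, adjusted p = 9.83e-07) and Etv4 (5.74, adjusted p = 9.61e-06). In Braf under CKI, 9 of the 19 were called higher than wild type by edgeR, beside 10.2% of all genes. In 2 of the other settings tried this count was 5. By edgeR, by DESeq2 and at an unadjusted p under 0.05, 0 were lower. For CKI against vehicle the median log2 fold change of the list was 0.47 in Braf. It was -0.75, -0.96 and -1.04 in Braf Arid1a KO, Braf Arid2 KO and Braf Smarcb1 KO.

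**Figure D4:**
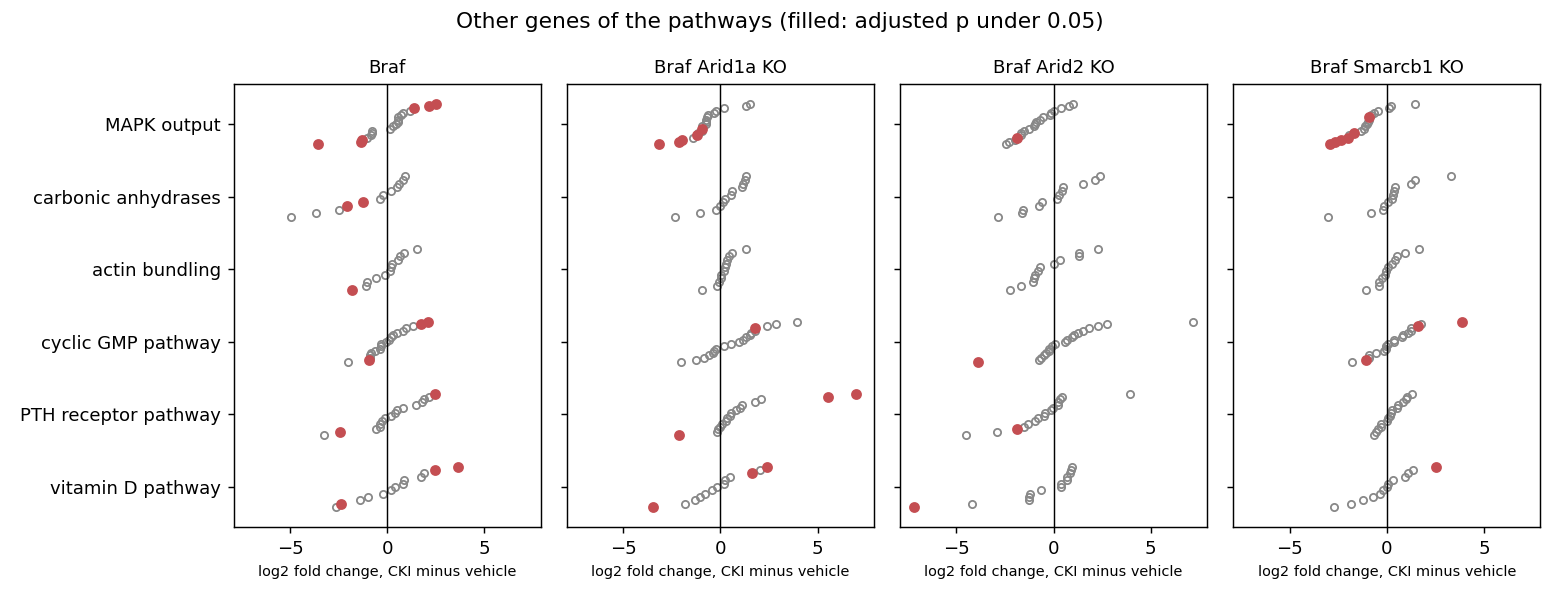
Log2 fold change of CKI against vehicle for the other genes of 6 lists (rows) in the 4 genotypes (panels), with filled points where the adjusted p was under 0.05. Most points of each list are open and lie on both sides of 0, and the ERK output list has filled points below 0 in all 4 panels, with 3 above 0 in Braf.

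The genes whose levels over the 28 libraries were most like those of each member were read from Pearson's r of log2(CPM + 1), among 11991 genes. The libraries share genotypes and treatments, so r is a description. Styk1 (0.88), Pdgfc (0.85) and Ecm1 (0.85) were nearest to Cyp24a1. Ecm1, a secreted matrix protein, had 317, 451 and 4073 CPM in Braf Smarcb1 KO under CKI, with 1 library far above the others, as for Cyp24a1. Nearest to Pthlh were Krt20 (0.95), a keratin of gut and bladder epithelium, and the surfactant protein genes Sftpa1 (0.95) and Sftpd (0.95). Sftpa1 had 46235 ± 20442 CPM in Braf under vehicle and 1673 ± 1056 CPM under CKI (SD, n = 3), against 4.54 ± 2.22 CPM in wild type. Prkg2 was most like Glipr2 (0.93), S100a4 (0.92) and Atg9b (0.91). S100a4, a calcium-binding protein, shared the step of Prkg2 in Braf Smarcb1 KO, with 1404 ± 491 CPM under vehicle against 113 ± 14.2 CPM in Braf. F2rl2 (0.92), which encodes a protease-activated receptor, Ino80c (0.89) and Rnmt (0.87) were nearest to Pls3, and Atp6v0d2 (0.92), a subunit of the vacuolar proton pump, Il18 (0.92) and Olr1 (0.88) to Car4. Like Car4, Atp6v0d2 was below wild type in Braf under CKI, at 17.6 ± 4.56 CPM against 71.0 ± 13.4 CPM (SD, n = 3). In Braf under vehicle Atp6v0d2 had 100.4 ± 29.1 CPM (SD, n = 3) and, unlike Car4, overlapped with wild type.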

How the data were processed

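RNA-seq libraries of mouse thyroid were read as whole-number counts per gene that the authors deposited without normalization. STAR 2.4, HTSeq 0.6.1, DESeq2 and build mm9 were used, per the submitters' processing notes, and the kit was TruSeq RNA, per the labels' protocols; the roles of the tools and whether strand was kept are not given in the sources used here. The labels give 30 samples in 10 groups by title, of which 2 (Braf Arid2 KO, vehicle replicate 1 and CKI replicate 2) were not analysed here. No library repeated another of its group: over the 26 within-group pairs, chi-square divided by its degrees of freedom was 77.0 to 359.

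Genes with low counts were removed by filterByExpr, library sizes were scaled by TMM, and all 28 libraries entered 1 quasi-likelihood fit with a term per group (edgeR 4.0.16, R 4.3.3). The Benjamini-Hochberg adjustment covered 19016 genes, with a threshold of 0.05. Groups without reads were given a floor of 3 counts over the group. Floors and the 95% interval cover counting error only. In counts simulated for CKI against vehicle in Braf (19016 genes), 52% of the 4-fold changes and 4% of the 2-fold ones were found, and 2 unchanged genes were called.

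The members, the pathway lists (6) and marker lists (10) were chosen with earlier results of these data known. Named genes were the members, their relatives, up to 3 called genes of each list by smallest adjusted p in a drug comparison or in Braf vehicle against wild type, and 3 genes by likeness to each member (mean of at least 5 CPM in a group). Promoters came from RefSeq, and 3 of the 5 members matched. The alternatives tried were DESeq2 1.42.0, scaling by RLE, testing without the filter, a fit of only the groups compared, the replicate number as a block and leaving out each library.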

Additional observations from a re-analysis of the deposited data

Results flagged for a closer look

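In the lists, 4 genes of the lists moved in opposite directions with CKI in different genotypes, in every library of each. None of these differences was tested, and all 4 involve Braf Arid2 KO, which has 2 libraries a group. Of all genes tested, 29.2% were lower and 24.4% higher under CKI without overlap in Braf Arid2 KO. The shares were 15.5% and 18.1% in Braf and 10.2% and 11.5% in Braf Smarcb1 KO. Tnfsf11 had a log2 fold change of 2.45 in Braf and -2.91 in Braf Arid2 KO. For Npr1 the values were 0.98 in Braf and 1.59 in Braf Smarcb1 KO, against -0.63 in Braf Arid2 KO. Phlda1 stood at 2.15 in Braf and -0.55 in Braf Arid2 KO. Spred2 had 0.56 in Braf, -1.89 in Braf Arid2 KO and -1.70 in Braf Smarcb1 KO.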

How the results depend on the processing

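The median of the 5 members changed sign only for Smarcb1 KO against Braf, a value near 0 (0.18), without Braf vehicle replicate 4 or Braf Smarcb1 KO vehicle replicate 1. The samples share only replicate numbers: deviations of same-numbered libraries under vehicle and CKI correlated at -0.54 to -0.05. With the replicate number as a block the median was -5.05 in Braf Arid2 KO and -2.51 in Braf Smarcb1 KO for CKI against vehicle, and 0.99 for Braf CKI against wild type; genes called went from 858 to 177 in Braf Arid1a KO and from 732 to 339 in Braf Smarcb1 KO under CKI, from 1818 to 1095 for Braf Arid1a KO against Braf and from 3277 to 1816 for Braf CKI against wild type. Leaving out each library gave medians of -3.64 to -3.17 for CKI in Braf, -5.03 to -4.84 in Braf Arid2 KO and -2.97 to -1.82 in Braf Smarcb1 KO, -1.05 to -0.50, -0.79 to -0.23 and -0.039 to 0.55 for Arid1a KO, Arid2 KO and Smarcb1 KO against Braf, 4.97 to 6.50 for Braf against wild type and 0.040 to 1.46 for Braf CKI against wild type.

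Counts of called genes moved more. By DESeq2 they were 3899, 1846, 1814 and 1571 for CKI in Braf, Braf Arid1a KO, Braf Arid2 KO and Braf Smarcb1 KO (2466, 858, 640 and 732 by edgeR), and 2873 and 2039 for Arid1a KO and Arid2 KO against Braf (1818 and 686). Fits of only the groups compared gave 1367, 527, 1651 and 2 for CKI in the same order, 829, 1 and 2335 for Arid1a KO, Arid2 KO and Smarcb1 KO (5433) against Braf, and 2333 for Arid1a KO against wild type (3538). Leaving out each library gave 726 to 2453, 256 to 756, 65 to 349 and 233 to 923 for CKI, 737 to 1637 and 38 to 874 for Arid1a KO and Arid2 KO against Braf, and 1115 to 4854 for Arid1a KO against wild type. A library left out of a group of 2 leaves 1, which is assumed to vary like the others. For Cyp24a1, only the groups compared gave no value in Arid1a KO against wild type. Of named calls that held without each library, fits of only the groups compared ended those of Casr in Braf Arid1a KO and of Etv5 and Spry4 in Braf Smarcb1 KO under CKI (adjusted p by edgeR 0.0579, 0.0662 and 0.0719), and the block ended those of Trpv6 in Braf Arid1a KO under CKI and of Pde9a and Espn against wild type (0.0586, 0.0624 and 0.0604). In the counts simulated for CKI in Braf, with 3 libraries a group, 4% of 2-fold changes were found.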
